A study of Mus musculus with 16 samples.

Results

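The 43 genes described here encode the contractile, calcium-handling and energy proteins of skeletal muscle, the striated muscle that in mouse skin forms the panniculus carnosus, a thin sheet under the dermis. They were selected on their known function, as a list of gene symbols, with earlier results of these dorsal skin libraries already known, so the counts of members that changed are a description of the list and not an independent test of it. The list used no fold change or threshold. All 43 were among the 23282 rows of the count table, and 42 of them passed the filter on low counts; the slow myosin heavy chain Myh7 did not. A member that passed only because it was high in some groups had to differ between groups, so none of the counts over the 42 tested members stands for the whole list.

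Bulk RNA of dorsal skin was measured by QuantSeq, a protocol that reads 1 fragment next to the 3′ end of each messenger RNA, in 16 libraries of wild-type (WT) male C57BL/6N mice. Cont mice ate normal chow. LowAhR mice were fed for 12 weeks on a diet poor in ligands of the aryl hydrocarbon receptor (AhR), on paper bedding. LowAhR+AD mice had that diet and, from 2 weeks into it, dermatitis from 1% 2,4-dinitrochlorobenzene (DNCB) painted on the back, which serves as a model of atopic dermatitis (AD), and LowAhR+AD+BJ mice had both together with Bojungikgi-tang (BJIKT), a herbal extract given by gavage at 1 g/kg/day. There were 4 libraries in each group. Mice arrived at 3 weeks of age and adapted for 1 week before the diets began. The 3 groups other than Cont share the diet and the bedding, so the comparison of LowAhR with Cont joins both. No group was given DNCB on normal chow, so the comparison of LowAhR+AD with Cont joins the diet, the bedding and DNCB. DNCB was applied in acetone and olive oil, and BJIKT was given in water. Whether the other groups received the solvent or a gavage of water is not given in the sources used here. The comparisons for DNCB and BJIKT may therefore join these too. Library totals ran from 7080508 to 13467477 counts and were higher in every library of the DNCB groups than in any Cont or LowAhR library. Levels below are CPM after TMM scaling, and because QuantSeq counts 1 fragment per transcript they are not divided by gene length.

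A sarcomere shortens when the thick filament, made of myosin, pulls on the thin filament, made of actin with troponin and tropomyosin. Calcium released from the sarcoplasmic reticulum through the ryanodine receptor binds troponin C and lets this happen, and the calcium pump SERCA1 returns it to its store. Fibres differ in the isoforms they make. Fast fibres express the myosin heavy chains Myh4 (type IIB, the fastest and most glycolytic), Myh1 (type IIX) and Myh2 (type IIA), with fast troponins, while slow fibres express Myh7 and slow troponins.

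The fast myosin genes lie in a row on chromosome 11. In the GENCODE vM21 annotation of GRCm38, the assembly that mm10 also names, Myh2 spans chr11:67171027-67197517, Myh1 chr11:67200052-67224575 and Myh4 chr11:67238029-67260446, all on the plus strand and 89.4 kb from the first base to the last. Promoters were found for 32 of the 43 members in a RefSeq table of GRCm38.p6, as 250 bases before and 50 after a start site. The promoters of Myh4 and Myh1 are printed because the balance of these genes differed between libraries within the muscle counts, and that of Acta1, skeletal muscle actin, because it encodes the actin of the thin filament. Capitals mark a match, on either strand, to the E-box CAGCTG that muscle bHLH factors of the MyoD family are known to bind, to the MEF2 motif or to the CArG box of serum response factor.
Myh4 (chr11:67237562-67237861, plus strand): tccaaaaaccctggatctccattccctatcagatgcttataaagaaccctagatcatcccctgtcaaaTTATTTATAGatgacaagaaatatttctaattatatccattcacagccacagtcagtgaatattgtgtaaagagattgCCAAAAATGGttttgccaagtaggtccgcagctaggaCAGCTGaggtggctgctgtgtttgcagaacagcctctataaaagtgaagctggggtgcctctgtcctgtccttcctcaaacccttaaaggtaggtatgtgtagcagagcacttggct
Myh1 (chr11:67199852-67200151, plus strand): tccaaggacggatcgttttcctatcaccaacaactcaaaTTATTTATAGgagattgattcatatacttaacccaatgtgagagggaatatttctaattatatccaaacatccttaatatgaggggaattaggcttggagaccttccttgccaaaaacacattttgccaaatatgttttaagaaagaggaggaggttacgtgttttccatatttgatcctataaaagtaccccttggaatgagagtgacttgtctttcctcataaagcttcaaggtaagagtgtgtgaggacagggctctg
Acta1 (chr8:123894726-123895025, minus strand): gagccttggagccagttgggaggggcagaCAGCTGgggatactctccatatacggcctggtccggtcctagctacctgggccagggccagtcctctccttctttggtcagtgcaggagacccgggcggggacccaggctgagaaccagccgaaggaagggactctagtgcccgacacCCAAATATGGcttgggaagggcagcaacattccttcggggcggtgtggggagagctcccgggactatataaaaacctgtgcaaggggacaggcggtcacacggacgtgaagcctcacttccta
Counted from the first base printed, Myh4 held a MEF2 motif at bases 69 to 78, a CArG box at 147 to 156 and the E-box at 184 to 189. Myh1 held only a MEF2 motif, at bases 40 to 49. Acta1 held the E-box at bases 30 to 35 and a CArG box at 178 to 187. No 2 of these matches overlapped. Over the list, the E-box was in a promoter of 17 of 32 members (53.1%), against 18.3% of the 27025 genes in the table. The MEF2 motif was in 6 of 32 (18.8%), against 3.7% of genes, and the CArG box in 4 of 32 (12.5%), against 1.81%. These are letter matches in 300 bases and describe the window only.

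The members together took 3.23, 1.75, 1.75 and 2.47% of all counts in Cont, 2.06, 2.17, 4.12 and 3.83 in LowAhR, 0.877, 0.449, 0.0901 and 0.750 in LowAhR+AD and 1.00, 0.566, 1.95 and 0.595 in LowAhR+AD+BJ, each list in order of replicate. The mean was 2.30 ± 0.706% (SD, n = 4) in Cont, 3.04 ± 1.08% in LowAhR, 0.541 ± 0.351% in LowAhR+AD and 1.03 ± 0.648% in LowAhR+AD+BJ. No LowAhR+AD library reached the lowest Cont or LowAhR library, and the mean share was 5.62-fold lower than in LowAhR. These shares are relative to all counts of a library. In bulk skin, fewer muscle cells, less RNA per muscle cell and more RNA from other cells cannot be told apart. How evenly the muscle sheet was taken with each piece of skin is not given in the sources used here, and its part in these levels was not tested. LowAhR+AD replicate 3 stood far below the rest of its group: 36 of the 42 tested members had their lowest LowAhR+AD level there, and the highest share in that group was 9.74-fold above the lowest. Without it, the group mean was still 4.4-fold lower than that of LowAhR. LowAhR+AD+BJ replicate 3 stood above the rest of its group, with the highest level of 36 of the 42 members, and it lay inside the Cont range. In LowAhR, replicates 3 and 4 were both above replicates 1 and 2 for 35 of the 42 tested members.

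**Figure D1:**
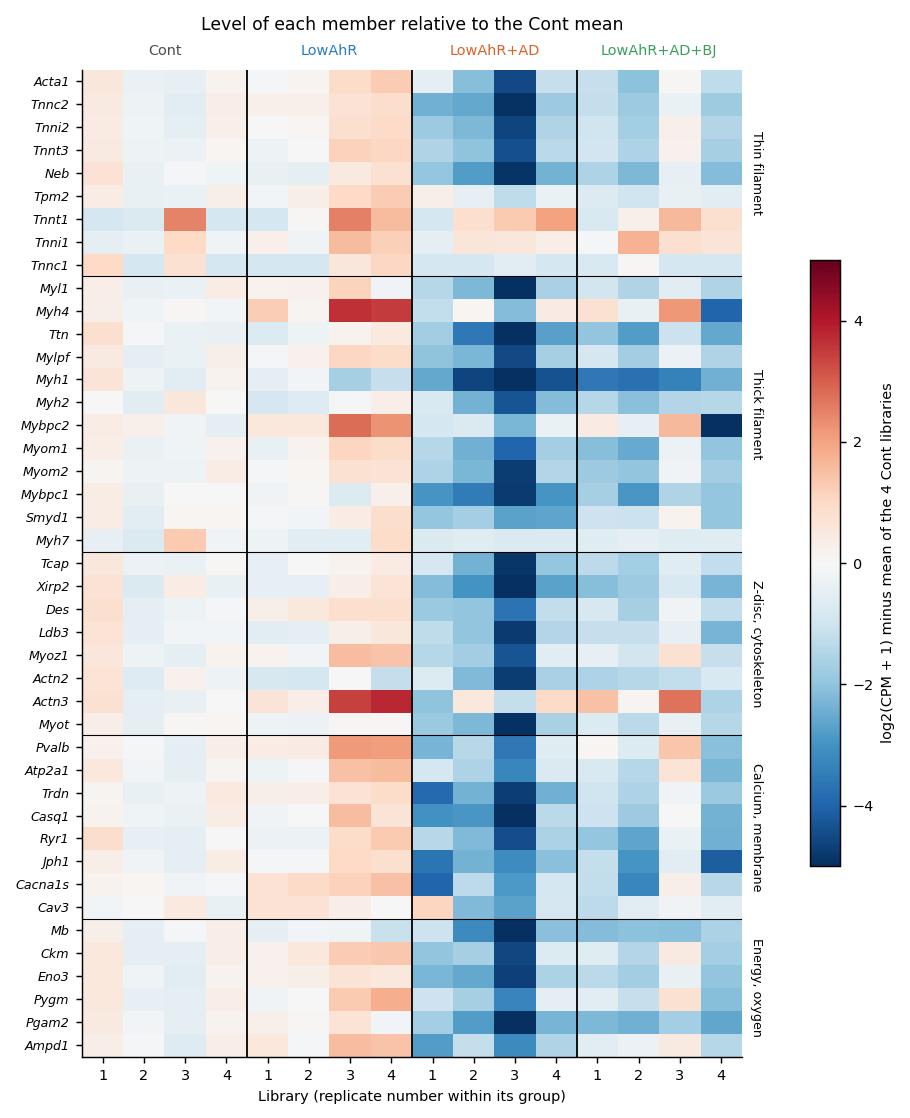
Level of each of the 43 members (rows, grouped by role) in each of the 16 libraries (columns, by group and replicate), as log2(CPM + 1) minus the mean of the 4 Cont libraries. Most rows are below Cont in LowAhR+AD, and most of all in replicate 3, where 34 of the 42 tested members had their lowest level of all 16 libraries; Myh4, Mybpc2 and Actn3 stand out in LowAhR replicates 3 and 4 and in LowAhR+AD+BJ replicate 3.

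The effect of DNCB on the low AhR ligand diet was measured by LowAhR+AD against LowAhR. In edgeR's quasi-likelihood test with Benjamini-Hochberg adjustment over all 14854 tested rows, 37 of the 42 tested members were called lower and 0 higher, beside 6.21% of all tested rows called lower. The median log2 fold change was -2.70 over the tested members and 0.04 over all tested rows. The libraries of the 2 groups did not overlap for 32 of the 42, beside 9.85% of all tested rows that were lower without overlap. All 42 tested members had a negative log2 fold change. By role, 11 of 11 tested thick filament genes and 6 of 6 energy and oxygen genes were called lower. So were 7 of 8 calcium and membrane genes, 7 of 8 Z-disc and cytoskeletal genes and 6 of 9 thin filament genes. Of the genes that mark fast fibres, 12 of 12 were called lower, and of the 4 tested genes named for slow fibres, 1, Mybpc1. The other slow genes, Tnnt1, Tnni1 and Tnnc1, had at most 79, 36 and 23 counts in any library. Their log2 fold changes were -0.29 ± 1.63, -1.08 ± 1.34 and -3.98 ± 2.09 SE, so these calls cannot compare fast with slow fibres. The 5 tested members that were not called were the slow troponins Tnnt1, Tnni1 and Tnnc1, the Z-disc crosslinker Actn2 (log2 fold change -1.11) and the caveolin of the muscle membrane Cav3 (-0.95). Leaving out 1 library at a time gave 27 to 36 of the 42 called, beside 616 to 968 rows called lower. The fewest members were called without LowAhR+AD replicate 2 and, equally, without LowAhR replicate 3, beside 677 and 640 rows. The calls of Acta1, Atp2a1, Myh2, Myh4, Mybpc2, Actn3, Ldb3, Pygm, Mb, Tpm2 and Cacna1s were each lost without at least 1 library, with adjusted p-values of at most 0.129, and those of Myh4, Mybpc2 and Actn3 also in limma voom. In edgeR fitted to only the 8 libraries compared, the calls of Myl1 (adjusted p = 0.0592), Myot (adjusted p = 0.0591), Myoz1 (adjusted p = 0.0612) and Tcap (adjusted p = 0.0858) were lost as well. Without LowAhR+AD replicate 1, 36 of the 42 members were called lower in edgeR, beside 916 of 15028 rows. They included Cav3 (-2.56, adjusted p = 0.0099) and Actn2 (-1.78, adjusted p = 0.0377), which the main fit did not call. Without LowAhR+AD replicate 3, 32 members were called lower, beside 968 of 15055 rows.

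Among thin filament genes, Acta1 stood at 3078, 1665, 1558 and 2394 CPM in Cont, 1990.3, 2301, 3977 and 5067 in LowAhR, 1514, 482, 90.5 and 935 in LowAhR+AD and 933, 510.0, 2196 and 876 in LowAhR+AD+BJ. All LowAhR+AD libraries were below all LowAhR libraries, and the highest of them, replicate 1, lay just under the lowest Cont library. Acta1 was 4.41-fold lower (log2 fold change -2.14 ± 0.61 SE, adjusted p = 0.0277). Tnnc2, the fast troponin C that binds calcium, stood at 3181, 1934, 1642 and 2954 CPM in Cont, 2764, 2752, 3859.8 and 4274 in LowAhR, 447, 397, 76.1 and 665 in LowAhR+AD and 1037, 669.9, 1857 and 677 in LowAhR+AD+BJ. No LowAhR+AD library was above 665 CPM and no Cont or LowAhR library below 1642 CPM. Tnnc2 was 8.61-fold lower (log2 fold change -3.11 ± 0.51 SE, adjusted p = 0.0011). Tnnt3, the fast troponin T that ties the complex to tropomyosin, stood at 1669, 1015, 975 and 1286 CPM in Cont, 1019, 1206, 2703 and 2501 in LowAhR, 425, 303, 56.7 and 475 in LowAhR+AD and 622, 408, 1409 and 381 in LowAhR+AD+BJ, again with no overlap between LowAhR+AD and LowAhR. Tnnt3 was 5.90-fold lower (log2 fold change -2.56 ± 0.55 SE, adjusted p = 0.00624). Tnni2, the fast inhibitory troponin, stood at 2042, 1313, 1135 and 1814 CPM in Cont, 1564, 1629, 2682 and 2942 in LowAhR, 435, 323, 63.2 and 542 in LowAhR+AD and 762, 475, 1850.0 and 549.9 in LowAhR+AD+BJ. LowAhR+AD replicate 3 was the lowest library and LowAhR replicate 4 the highest. Tnni2 was 6.47-fold lower (log2 fold change -2.69 ± 0.53 SE, adjusted p = 0.00396). Tpm2, a tropomyosin that smooth muscle and other cells also make, had the smallest fold of the called members and was 2.06-fold lower (log2 fold change -1.05 ± 0.33 SE, adjusted p = 0.0469). The giant thin filament ruler Neb was 7.34-fold lower (log2 fold change -2.88 ± 0.54 SE, adjusted p = 0.003).

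Among the remaining thick filament genes, Myl1, the essential light chain of fast fibres, stood at 4021, 2464, 2531 and 4102 CPM in Cont, 3602, 3703, 6814 and 2827 in LowAhR, 1179.7, 662, 70.03 and 1038 in LowAhR+AD and 1678, 1109.6, 2239 and 1109.8 in LowAhR+AD+BJ. LowAhR+AD lay wholly below LowAhR. Myl1 was 5.74-fold lower (log2 fold change -2.52 ± 0.56 SE, adjusted p = 0.00799). Of the 75-base windows in the last 400 bases of its annotated transcripts, 17.8% also occur in Mylf-ps, so its counts are uncertain to that extent. Mylpf, the regulatory light chain of fast fibres, was 7.47-fold lower (log2 fold change -2.90 ± 0.49 SE, adjusted p = 0.00148), and the spring protein titin, Ttn, was 7.20-fold lower (log2 fold change -2.85 ± 0.60 SE, adjusted p = 0.00533). The M-band genes Myom1 and Myom2 and Smyd1, which helps myosin assembly, had log2 fold changes of -2.69, -2.53 and -2.79, all called.

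Among Z-disc genes, Tcap, which caps titin, stood at 554, 304, 301 and 388 CPM in Cont, 282, 376, 427 and 497 in LowAhR, 208, 72.6, 12.0 and 97.6 in LowAhR+AD and 150.2, 116, 249 and 159 in LowAhR+AD+BJ. No LowAhR+AD library reached the LowAhR range, and replicate 1 was the nearest. Tcap was 4.05-fold lower (log2 fold change -2.02 ± 0.52 SE, adjusted p = 0.0177). Xirp2, an actin-binding protein of the Z-disc and the cell ends, stood at 641, 235, 512 and 301 CPM in Cont, 294, 289.7, 486 and 628 in LowAhR, 86.3, 48.3, 3.96 and 59.7 in LowAhR+AD and 89.1, 111, 229.6 and 76.3 in LowAhR+AD+BJ. Its LowAhR+AD replicate 3 held 3.96 CPM, against 48.3 CPM or more in each other library. Xirp2 was 8.56-fold lower (log2 fold change -3.10 ± 0.62 SE, adjusted p = 0.00433). The intermediate filament desmin, Des, was 6.13-fold lower (log2 fold change -2.62 ± 0.43 SE, adjusted p = 0.00129). The Z-disc genes Myoz1, Myot and Ldb3 and the fast-fibre actinin Actn3 were called lower as well, with log2 fold changes of -2.48, -2.21, -1.98 and -2.79.

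Among calcium genes, Pvalb, the calcium buffer parvalbumin of fast fibres, stood at 572, 462, 349 and 607 CPM in Cont, 633, 638, 2131 and 2085 in LowAhR, 96.8, 185, 39.6 and 319 in LowAhR+AD and 514, 302, 1278 and 113 in LowAhR+AD+BJ. Each LowAhR library exceeded each Cont library, and each LowAhR+AD library was below both. Pvalb was 8.58-fold lower (log2 fold change -3.10 ± 0.69 SE, adjusted p = 0.00757). Atp2a1, which encodes SERCA1, stood at 852, 535, 416 and 643 CPM in Cont, 499, 560.1, 1620.1 and 1772 in LowAhR, 321, 201, 60.4 and 356 in LowAhR+AD and 344, 219.8, 943 and 119 in LowAhR+AD+BJ. LowAhR+AD lay below LowAhR throughout, by a narrower margin than Pvalb. Atp2a1 was 4.74-fold lower (log2 fold change -2.25 ± 0.61 SE, adjusted p = 0.0228). Trdn, triadin of the calcium release complex, had the lowest adjusted p of the calcium genes and was 12.6-fold lower (log2 fold change -3.65 ± 0.49 SE, adjusted p = 0.000287). The calcium-binding store protein Casq1, the junctional protein Jph1, the voltage sensor Cacna1s and the release channel Ryr1 had log2 fold changes of -3.32, -3.43, -3.23 and -2.71, all called.

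Among energy genes, Mb, the oxygen carrier myoglobin, stood at 1175, 682, 907 and 1194 CPM in Cont, 708, 881, 857 and 445 in LowAhR, 469, 104, 17.0 and 229 in LowAhR+AD and 213, 235, 225 and 325 in LowAhR+AD+BJ. LowAhR+AD replicate 1 was above the lowest LowAhR library, so these groups overlapped. Mb was 3.53-fold lower (log2 fold change -1.82 ± 0.58 SE, adjusted p = 0.0465). Ckm, the muscle creatine kinase, stood at 721, 364, 365 and 630.3 CPM in Cont, 569, 711, 1182 and 1265 in LowAhR, 124, 155, 20.0 and 309 in LowAhR+AD and 324, 179.8, 676 and 154 in LowAhR+AD+BJ. LowAhR+AD lay wholly below LowAhR and below Cont. Ckm was 6.13-fold lower (log2 fold change -2.61 ± 0.61 SE, adjusted p = 0.00996). The muscle enolase Eno3, the phosphoglycerate mutase Pgam2, the glycogen phosphorylase Pygm and the AMP deaminase Ampd1 had log2 fold changes of -2.88, -2.82, -2.29 and -3.18, all called.

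**Figure D2:**
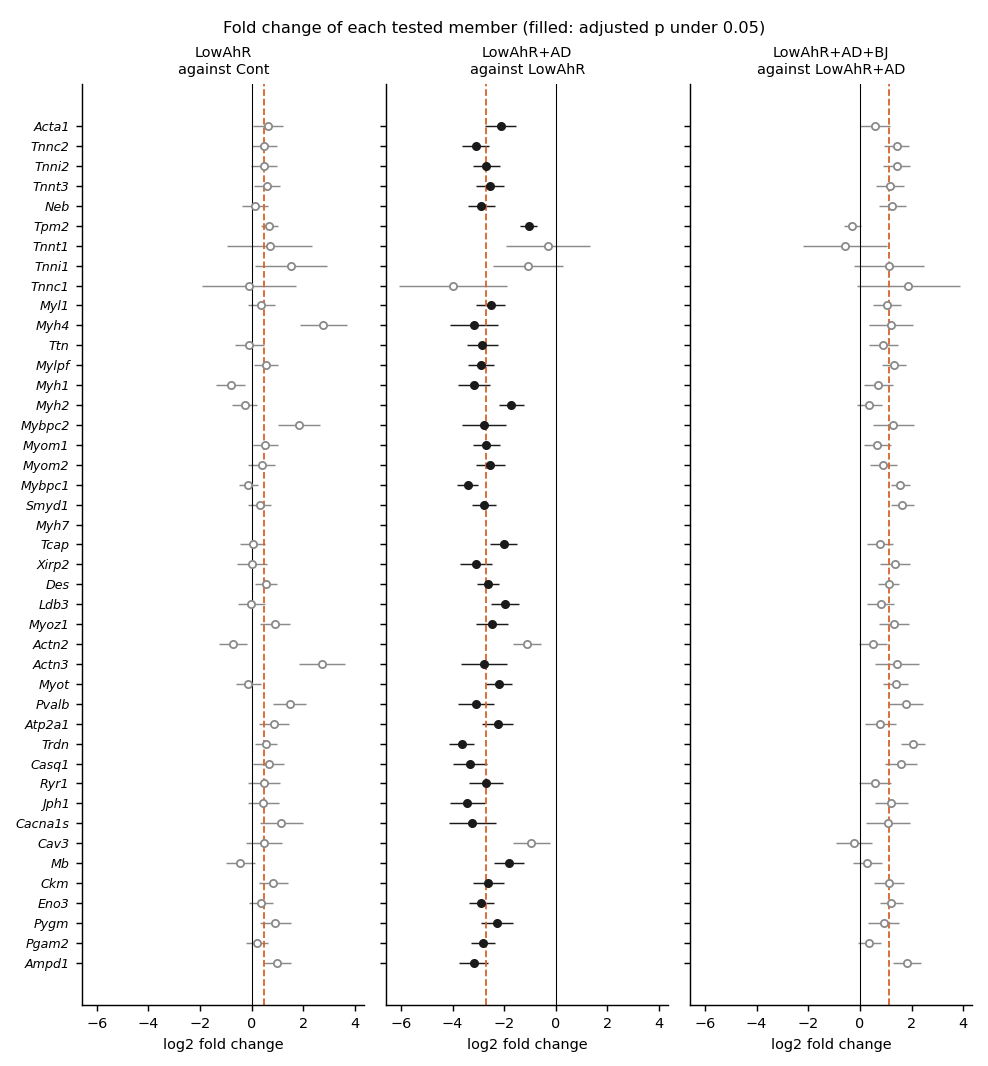
Log2 fold change (points) with its standard error (bars) of each tested member in 3 comparisons, in the order of the roles; filled points have an edgeR adjusted p under 0.05, the dashed line is the median of the tested members and Myh7 was not tested. The medians are 0.49, -2.70 and 1.13 from left to right, and filled points occur only in the middle panel.

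The fast myosin heavy chains were all called lower in LowAhR+AD against LowAhR, but they ordered the libraries differently. Myh4 stood at 541, 385, 467 and 409 CPM in Cont, 1054, 491, 5556 and 5086 in LowAhR, 188, 475, 98.6 and 602 in LowAhR+AD and 766, 347, 1993 and 28.0 in LowAhR+AD+BJ. LowAhR replicates 3 and 4 were the highest of all 16 libraries, and LowAhR+AD+BJ replicate 4 was the lowest. Myh1 stood at 1474, 793, 632 and 1066 CPM in Cont, 687, 853, 298 and 418 in LowAhR, 158, 37.7, 10.9 and 45.7 in LowAhR+AD and 77.6, 69.3, 90.2 and 177 in LowAhR+AD+BJ. Its order was the opposite one within LowAhR, where replicates 3 and 4 were the lowest. Myh2 stood at 172, 121, 257 and 172 CPM in Cont, 96.9, 109.7, 167 and 222 in LowAhR, 102, 33.1, 7.85 and 37.7 in LowAhR+AD and 65.1, 40.6, 62.3 and 63.7 in LowAhR+AD+BJ, and LowAhR+AD overlapped LowAhR only through replicate 1. In LowAhR+AD against LowAhR, Myh4 was 8.94-fold lower (log2 fold change -3.16 ± 0.92 SE, adjusted p = 0.031), Myh1 was 8.95-fold lower (log2 fold change -3.16 ± 0.61 SE, adjusted p = 0.00334) and Myh2 was 3.30-fold lower (log2 fold change -1.72 ± 0.49 SE, adjusted p = 0.0291). Against Cont, Myh1 was 15.7-fold lower (log2 fold change -3.97 ± 0.63 SE, adjusted p = 0.000439), whereas Myh4 had a log2 fold change of -0.40 with an adjusted p of 0.784 and was not called.

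Of the counts of Myh1, Myh2 and Myh4 together, a measure chosen after the values were seen and given with no test, Myh4 took 24.7, 29.6, 34.4 and 24.8% in Cont, 57.3, 33.8, 92.3 and 88.8 in LowAhR, 41.9, 87.0, 84.0 and 87.8 in LowAhR+AD and 84.3, 75.9, 92.9 and 10.4 in LowAhR+AD+BJ. The 4 Cont libraries lay between 24.7% and 34.4%, and 2 LowAhR, 3 LowAhR+AD and 3 LowAhR+AD+BJ libraries lay above 75%. Within each of the 3 groups on the diet the libraries spread widely, with LowAhR replicate 2, LowAhR+AD replicate 1 and LowAhR+AD+BJ replicate 4 nearest to Cont or below it. Each share rests on at least 1509 counts, and the widest 95% Wilson interval spans 3.7 percentage points, which covers counting error only. The log2 ratio of Myh4 to Myh1 averaged -1.08 ± 0.46 (SD, n = 4) in Cont, 1.91 ± 2.39 in LowAhR, 2.69 ± 1.65 in LowAhR+AD and 1.86 ± 3.13 in LowAhR+AD+BJ. Reads of these genes can be told apart in part only: of the 75-base windows in the last 400 bases of their annotated transcripts, 6.42% of those of Myh1, 14.3% of those of Myh2 and 2.45% of those of Myh4 also occur in another gene.

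**Figure D3:**
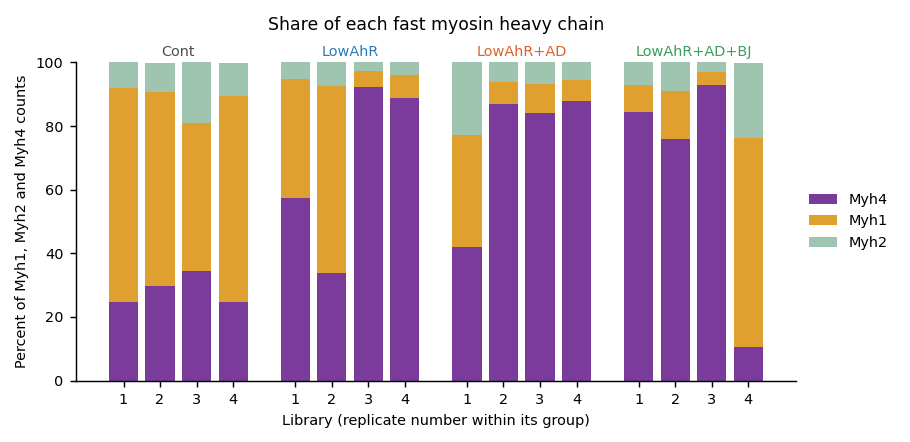
Share of Myh4, Myh1 and Myh2 in their summed counts (stacked bars, percent) in each of the 16 libraries. Myh1 is the largest part in all 4 Cont libraries, and Myh4 is the largest in LowAhR replicates 1, 3 and 4, in all LowAhR+AD libraries and in LowAhR+AD+BJ replicates 1 to 3.

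Other members varied with this balance within the muscle counts, and these measures too were chosen after the values were seen. Per 1000 counts of all members, Actn3, the fast-fibre actinin of the Z-disc, took 1.26, 0.890, 0.966 and 0.909 counts in Cont, 1.60, 1.21, 5.53 and 7.45 in LowAhR, 0.593, 6.62, 9.23 and 5.68 in LowAhR+AD and 6.00, 3.68, 7.32 and 1.05 in LowAhR+AD+BJ. It was at most 1.6 in the 8 libraries where Myh4 held 57.3% or less of the fast myosin counts, and at least 3.68 in the other 8. Pvalb took 19.5, 27.2, 20.8 and 25.5 counts in Cont, 30.5, 28.7, 50.2 and 52.0 in LowAhR, 12.7, 40.2, 42.1 and 42.9 in LowAhR+AD and 51.5, 47.6, 64.7 and 17.7 in LowAhR+AD+BJ per 1000. Mybpc2, the fast myosin-binding protein C, took 2.94, 4.67, 3.49 and 2.04 counts in Cont, 4.62, 4.30, 10.9 and 7.91 in LowAhR, 4.69, 8.65, 13.4 and 7.16 in LowAhR+AD and 8.78, 7.91, 10.5 and 0.158 in LowAhR+AD+BJ per 1000, and its 0.158 in LowAhR+AD+BJ replicate 4 was the lowest by far. Myoglobin moved the other way and took 40.1, 40.1, 54.2 and 50.1 counts in Cont, 34.2, 39.7, 20.2 and 11.1 in LowAhR, 61.8, 22.6, 18.1 and 30.8 in LowAhR+AD and 21.4, 37.0, 11.4 and 51.1 in LowAhR+AD+BJ per 1000. Over the 16 libraries, the deviation of a member's log2 CPM from the mean of the tested members had a Pearson correlation with the log2 ratio of Myh4 to Myh1 whose highest values, leaving out these 2 genes, were 0.925 for Actn3, 0.795 for Pvalb, 0.771 for Mybpc2, 0.707 for Pygm and 0.665 for Atp2a1, and whose lowest were -0.836 for Mb, -0.825 for Mybpc1, -0.736 for Tcap and -0.698 for Pgam2. The other genes that mark fast fibres were negative: Myh2 (-0.619), Tnnc2 (-0.535), Mylpf (-0.518), Myl1 (-0.511), Tnni2 (-0.375) and Tnnt3 (-0.021). The scarce slow troponins Tnnt1 (0.49), Tnni1 (0.469) and Tnnc1 (0.192) were positive, so the sign did not follow the fast list as a whole. These correlations describe values that share a library and its groups, and carry no p. With library size set to the summed counts of the members, so that a change is relative to the muscle counts, LowAhR+AD against Cont called 5 of 42 members in edgeR: Actn3 (log2 2.45 ± 0.78 SE, adjusted p = 0.00392), Myh4 (1.86 ± 0.82, adjusted p = 0.0315), Tpm2 (2.19 ± 0.74, adjusted p = 0.00648) and Tnnt1 (3.19 ± 1.46, adjusted p = 0.0393) were higher and Myh1 (-1.94 ± 0.76, adjusted p = 0.0163) was lower. On that scale the median of all tested rows moved by 3.01 and 12045 of them were called, so the adjustment changed a p-value little. LowAhR+AD against LowAhR called Tpm2 and Tnnt1 on that scale, both higher, beside 12813 of all 14854 tested rows called. The other 3 comparisons called 0 members in edgeR. Beside them, 78 rows were called in LowAhR against Cont, 2225 in LowAhR+AD+BJ against LowAhR+AD and 5043 in LowAhR+AD+BJ against LowAhR. An unadjusted p under 0.05 was found for 2 members in LowAhR against Cont, beside 511 of all tested rows. It was found for 1 member in LowAhR+AD+BJ against LowAhR+AD, beside 7847 rows, and for 0 in LowAhR+AD+BJ against LowAhR, beside 7580 rows.

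**Figure D4:**
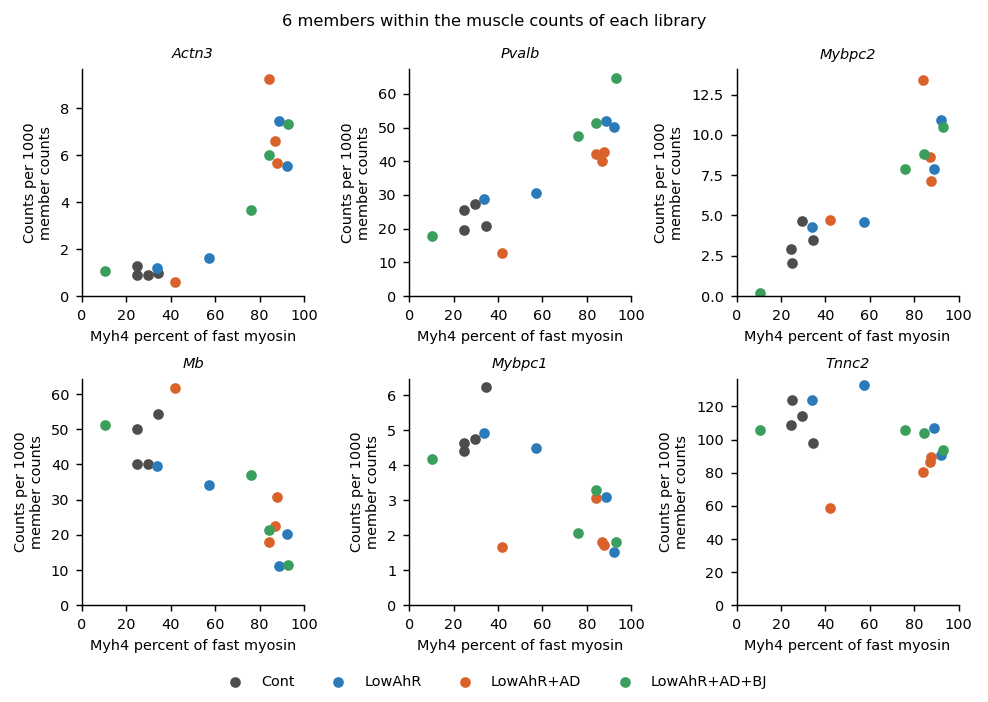
Counts of 6 members per 1000 counts of all 43 members (vertical axes) against the Myh4 percent of Myh1, Myh2 and Myh4 counts (horizontal axes), 1 point per library, coloured by group. Actn3, Pvalb and Mybpc2 are higher to the right, where Mb and Mybpc1 are lower; Tnnc2 is shown as a fast gene with a correlation of -0.535 for its deviation.

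Slow isoforms were scarce in each group. Myh7 stood at 0.257, 0, 3.08 and 0.479 CPM in Cont, 0.406, 0.128, 0.130 and 2.15 in LowAhR, 0, 0.0821, 0 and 0 in LowAhR+AD and 0.0913, 0.204, 0.0778 and 0.101 in LowAhR+AD+BJ, and 4 of 16 libraries held at least 3 counts of it. Tnnc1, the slow troponin C, stood at 2.70, 0, 2.10 and 0 CPM in Cont, 0, 0, 1.69 and 2.74 in LowAhR, 0, 0, 0.233 and 0 in LowAhR+AD and 0.0913, 0.916, 0 and 0 in LowAhR+AD+BJ, and was at 0 in 9 libraries. Tnnt1 stood at 0, 0.129, 9.13 and 0 CPM in Cont, 0, 0.896, 9.50 and 4.53 in LowAhR, 0, 2.30, 3.58 and 6.34 in LowAhR+AD and 0.0913, 1.22, 4.59 and 2.22 in LowAhR+AD+BJ, with at most 79 counts. In each comparison the groups overlapped for Tnnc1 and for Tnnt1. Tnni1 stood at 0, 0.129, 1.85 and 0.239 CPM in Cont, 0.676, 0.256, 3.25 and 2.27 in LowAhR, 0, 1.15, 1.09 and 0.803 in LowAhR+AD and 0.365, 3.67, 1.48 and 1.21 in LowAhR+AD+BJ, with at most 36 counts. A count of 0 allows up to 0.424 CPM in the shallowest library and 0.223 CPM in the deepest. Mybpc1, which is named the slow myosin-binding protein C but is known from fast fibres too, was read well and stood at 136, 80.5, 104 and 105 CPM in Cont, 92.9, 109, 64.8 and 123 in LowAhR, 12.6, 8.29, 2.88 and 12.8 in LowAhR+AD and 32.9, 13.1, 35.9 and 26.6 in LowAhR+AD+BJ. All 8 Cont and LowAhR libraries were above all 8 libraries of the DNCB groups. Mybpc1 was 10.7-fold lower (log2 fold change -3.41 ± 0.41 SE, adjusted p = 0.000148), the lowest adjusted p of the tested members. Its partner Mybpc2 stood at 86.3, 79.3, 58.4 and 48.7 CPM in Cont, 95.8, 95.6, 463 and 317 in LowAhR, 35.6, 39.8, 12.7 and 53.2 in LowAhR+AD and 87.7, 50.2, 208 and 1.01 in LowAhR+AD+BJ. LowAhR+AD was wholly below LowAhR, and its replicate 4 lay inside the Cont range. Mybpc2 was 6.88-fold lower (log2 fold change -2.78 ± 0.85 SE, adjusted p = 0.0384).

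Fast to slow ratios were compared within libraries, as log2 ratios with a prior count of 2, by two-sided exact permutation tests of 4 against 4 libraries, whose smallest p is 0.0286. Tnnc2 over Tnnc1 and the fast myosins over Myh7 were not tested, since the slow gene had fewer than 3 counts in 10 and 12 of 16 libraries. For Mybpc2 over Mybpc1 the log2 ratios were -0.66, -0.02, -0.84 and -1.10 in Cont, 0.04, -0.19, 2.83 and 1.36 in LowAhR, 1.48, 2.24, 2.06 and 2.03 in LowAhR+AD and 1.41, 1.92, 2.52 and -4.45 in LowAhR+AD+BJ. Each LowAhR+AD library was above each Cont library, with a mean of 1.95 ± 0.32 (SD, n = 4) against -0.65 ± 0.46 (exact permutation p = 0.0286, 0.0857 after adjustment over the 3 pairs), which fails the correction. The other 4 comparisons overlapped for this pair, with exact permutation p-values from 0.0571 in LowAhR against Cont to 0.857 in LowAhR+AD+BJ against LowAhR. Tnnt3 over Tnnt1 and Tnni2 over Tnni1 overlapped between the groups in each comparison, with exact permutation p-values from 0.0571 to 0.714. The lowest was that of Tnni2 over Tnni1 in LowAhR+AD against Cont, with a mean difference of -3.17. The slow gene had fewer than 3 counts in 6 libraries for Tnnt1 and in 5 for Tnni1. In Cont, Tnni1 held 0, 1, 15 and 2 counts, so the prior count and the fast gene's level set much of such ratios.

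The joint effect of the diet and its bedding, without DNCB, was measured by LowAhR against Cont. 0 of the 42 tested members were called in edgeR, beside 0% of all tested rows called higher, and 4 of 42 members had an unadjusted p under 0.05, beside 13.7% of all tested rows. In DESeq2 0 members were called, beside 509 of 18803 rows, 370 of them higher, and in limma voom 0 members, beside 0 of 14854 rows. An edgeR model of only these 8 libraries called Cacna1s and Myh4, both higher, beside 250 of 13574 rows, 156 of them higher. The median log2 fold change of the members was 0.49, and 33 of 42 were positive. Myh4 (log2 fold change 2.76, adjusted p = 0.165), Actn3 (2.72, adjusted p = 0.163) and Mybpc2 (1.83, adjusted p = 0.328) had the largest positive values and Myh1 (-0.81, adjusted p = 0.576) the largest negative one. Pvalb, Cacna1s and Mybpc2 were higher in LowAhR without overlap, 3 of 42, beside 5.68% of all tested rows.

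Diet, bedding and DNCB together, LowAhR+AD against Cont, gave 28 of 42 tested members called lower and 0 higher in edgeR. Beside them, 9.47% of all tested rows were called lower. The median log2 fold change was -2.15. The libraries did not overlap for 34 of 42, beside 11.8% of all tested rows lower without overlap. Mybpc1 was 11.6-fold lower (log2 fold change -3.54 ± 0.41 SE, adjusted p = 5.82e-05). The 14 members not called included Acta1 (-1.52, adjusted p = 0.077), Pvalb (-1.64, adjusted p = 0.081), Atp2a1 (-1.38, adjusted p = 0.107), Mybpc2 (-0.95, adjusted p = 0.443) and Actn3 (-0.07, adjusted p = 0.969). Acta1 was called lower in DESeq2 (adjusted p = 0.0231), in limma voom (adjusted p = 0.0247) and in edgeR without LowAhR+AD replicate 1 (adjusted p = 0.0169), and Pvalb in limma voom (adjusted p = 0.0381) and in edgeR without LowAhR+AD replicate 4 (adjusted p = 0.0386). The comparison shares its Cont libraries with LowAhR against Cont and its LowAhR+AD libraries with LowAhR+AD against LowAhR, so their values are given side by side only.

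The effect of BJIKT in dermatitis was measured by LowAhR+AD+BJ against LowAhR+AD. 0 of the 42 tested members were called in edgeR, beside 0% of all tested rows called higher, and 16 of 42 members had an unadjusted p under 0.05, beside 9.46% of all tested rows. In limma voom 0 members were called, beside 0 rows, and DESeq2 called Trdn, as higher, beside 19 of 18803 rows, 15 of them higher. The median log2 fold change was 1.13, and 39 of 42 were positive. Trdn, Mybpc1, Tnnc2 and Myot were higher without overlap, 4 of 42, beside 2.42% of all tested rows. Trdn stood at 397, 283, 304 and 517 CPM in Cont, 448, 458, 596 and 689.5 in LowAhR, 23.9, 69.3, 12.9 and 67.9 in LowAhR+AD and 181, 125, 319.6 and 100.5 in LowAhR+AD+BJ. Its LowAhR+AD+BJ libraries were above all LowAhR+AD and below all LowAhR libraries. Trdn was 4.17-fold higher (log2 fold change 2.06 ± 0.46 SE, adjusted p = 0.369) and Mybpc1 was 2.97-fold higher (log2 fold change 1.57 ± 0.38 SE, adjusted p = 0.498). The median of the members dropped to 0.81 when LowAhR+AD replicate 3 was left out, and to 0.53 when LowAhR+AD+BJ replicate 3 was.

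Against LowAhR, LowAhR+AD+BJ had 10 of 42 tested members called lower and 0 higher in edgeR, beside 3.12% of all tested rows called lower. The libraries did not overlap for 21 of 42, beside 8.19% of all tested rows. The called members were Pgam2, Mybpc1, Myh1, Tpm2, Myom1, Des, Trdn, Eno3, Tnnc2 and Jph1. Pgam2 was 5.47-fold lower (log2 fold change -2.45 ± 0.47 SE, adjusted p = 0.00581) and Myh1 was 5.45-fold lower (log2 fold change -2.45 ± 0.59 SE, adjusted p = 0.0177). The count changed when single libraries were left out, and so did the count over all tested rows, 464 of 14854 in the main fit. Leaving out LowAhR+AD+BJ replicate 3 gave 26 members, beside 753 of 15061 rows called lower. Leaving out any 1 of the other 7 libraries gave 2 to 5 members, beside 195 to 442 rows.

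Further genes of the same muscle, from lists that were also chosen with earlier results known, mostly fell with the members in LowAhR+AD against LowAhR. They were read in the same libraries, so these counts are a description and no independent support. Of all 14854 tested rows, 923 (6.21%) were called lower in this comparison and 953 higher. Of 24 tested structural genes, 13 were called lower and 0 higher (median log2 fold change -2.10). Hspb7, a small heat shock protein of muscle, had the highest mean CPM of that list and was not called (log2 fold change -1.70 ± 0.62 SE, adjusted p = 0.0798), and Lmod2, an actin nucleator, came next and was called (log2 fold change -2.67 ± 0.36 SE, adjusted p = 0.000304). Lmod3, Klhl41 and Nrap, genes of thin filament and myofibril assembly, had log2 fold changes of -3.72, -2.64 and -2.80, all called. Of 12 genes of calcium coupling, 8 were called lower and 0 higher (median -2.15). Tmem38a and Hrc, proteins of the calcium store and the highest of that list, had log2 fold changes of -2.32 and -2.57, and Sypl2, Jph2 and Cacna2d1, of the contacts between the cell membrane and the store, had -4.07, -2.47 and -2.0, all called. Of 14 energy genes, 11 were called lower and 0 higher (median -2.05), among them Cox6a2, Cox8b and Cox7a1, muscle subunits of cytochrome oxidase (-2.29, -2.61 and -2.43), the fructose bisphosphatase Fbp2 (-3.20) and Apobec2 (-2.97).

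Genes of muscle progenitors and of the nerve contact were mostly at low levels. Pax7 and Myf5, which mark satellite cells, and Myod1 had group means of at most 0.608, 0.36 and 0.701 CPM. In LowAhR+AD against LowAhR, 923 of all 14854 tested rows (6.21%) were called lower and 953 higher. Of 8 tested progenitor genes, 5 were called lower and 0 higher in that comparison. They were the muscle regulators Myog and Myf6, the developmental myosins Myh3 and Myh8, and Des, which is also a member. Myog ran from 0.358 to 3.77 CPM in LowAhR and was at 0 in all 4 LowAhR+AD libraries, and Myf6 and Myh3 had log2 fold changes of -3.05 and -4.15. Ncam1, which nerve and other cells make too, had log2 fold change 0.93 ± 0.44 SE, adjusted p = 0.177. Myh8, the perinatal myosin heavy chain, stood at 25.5, 17.2, 21.0 and 19.6 CPM in Cont, 18.1, 18.4, 59.3 and 67.4 in LowAhR, 1.37, 2.38, 1.01 and 1.61 in LowAhR+AD and 3.65, 2.65, 9.72 and 2.62 in LowAhR+AD+BJ. Each Cont and LowAhR library was above each library of the DNCB groups. Myh8 had log2 fold change -4.67 ± 0.56 SE, adjusted p = 0.000148. Of 7 tested genes of the neuromuscular junction, Colq (1.79 to 10.9 CPM in LowAhR and at most 0.161 in LowAhR+AD, adjusted p = 0.00392) and Lrp4 (log2 fold change -1.54 ± 0.39 SE, adjusted p = 0.0163) were called lower and 0 higher, and Rapsn, which clusters the acetylcholine receptor, had log2 fold change -1.81 ± 0.78 SE, adjusted p = 0.136. Of 9 genes known from muscle atrophy, which skin cells express too (median -0.52), the ubiquitin ligase Fbxo32 (-1.73) and myostatin, Mstn (-4.27), were called lower, and Mt1, Mt2 and Cdkn1a were called higher (1.02, 1.30 and 0.72). Trim63, the other ubiquitin ligase of that list, had log2 fold change -1.43 ± 0.72 SE, adjusted p = 0.203.

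Markers of several other cell types differed between the same groups, and their part in the result was not tested. Beside the counts below, 923 of all 14854 tested rows (6.21%) were called lower in LowAhR+AD against LowAhR in edgeR and 953 higher. In limma voom 1178 rows were called lower and 914 higher, and in DESeq2 1371 and 1349 of 18803. An unadjusted p under 0.05 was found in 28.1% of rows. Summed over 10 smooth muscle genes, the level ranged over 479 to 722 CPM in Cont, 516 to 735 CPM in LowAhR, 307 to 494 CPM in LowAhR+AD and 284 to 375 CPM in LowAhR+AD+BJ. Of 9 tested smooth muscle genes, 5 were called lower in LowAhR+AD against LowAhR, Lmod1 (-3.27), Synpo2 (-2.76), Myh11 (-1.57), Cnn1 (-1.53) and Mylk (-0.90), and Smtn was called higher. Their median log2 fold change was -1.02, and that of Acta2, smooth muscle actin, was -0.06. LowAhR+AD replicate 3, the library with the lowest muscle share, held the highest smooth muscle sum of its group, and also the highest fibroblast sum. The 6 fibroblast genes summed to 28036 to 54106 CPM in LowAhR and 3898 to 22599.7 CPM in LowAhR+AD, and Col1a1 and Col1a2 were called lower (-1.48 and -2.01), while 0 of the 6 were called higher (median -1.33), and Dcn had log2 fold change -1.53 ± 0.55 SE, adjusted p = 0.0726. The 8 adipocyte genes, of the fat layer above this muscle, had 7 called lower and 0 higher (median -2.12), among them Retn (-3.60), Cidec (-2.26), Adipoq (-2.73), Cfd (-1.98) and Fabp4 (-1.89). Basal keratinocyte genes summed to 2764 to 3473 CPM in LowAhR and 5479 to 10304 CPM in LowAhR+AD, with Krt14 (1.99) and Krt5 (1.39) called higher and Col17a1 (-1.47) lower (median 0.82). LowAhR+AD replicate 1 had the lowest fibroblast sum of all libraries, 3898 CPM, and the highest basal keratinocyte sum. Of the 13 hair follicle keratins 0 were called in edgeR and DESeq2 and 9 in limma voom, as higher, with a median of 2.23 and 4 of them at an unadjusted p under 0.05 in edgeR, and Krt25 and Krt71 had 2.47 and 2.31. Of 5 suprabasal keratinocyte genes 0 were called in edgeR (median -0.68, 2 at an unadjusted p under 0.05) and 1 in each of DESeq2 and limma voom, Krt10 and Krtdap with -1.13 and -1.39. Of 6 leukocyte genes S100a8 was called higher (4.29) and Ptprc (-1.17) and the T cell gene Cd3e (1.67 to 6.66 CPM in LowAhR, at most 0.155 in LowAhR+AD) lower, with a median of -0.74, and Lyz2 had log2 fold change -1.07 ± 0.84 SE, adjusted p = 0.436. Cardiac markers were near 0 in each group: Myh6 averaged at most 0.378 CPM and Nppa at most 0.44 CPM, and of 5 tested genes of that list 0 were called in edgeR, DESeq2 or limma voom (median -0.07, 2 at an unadjusted p under 0.05 in edgeR), Tnnt2 and Myl4 with 1.07 and -2.05.

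**Figure D5:**
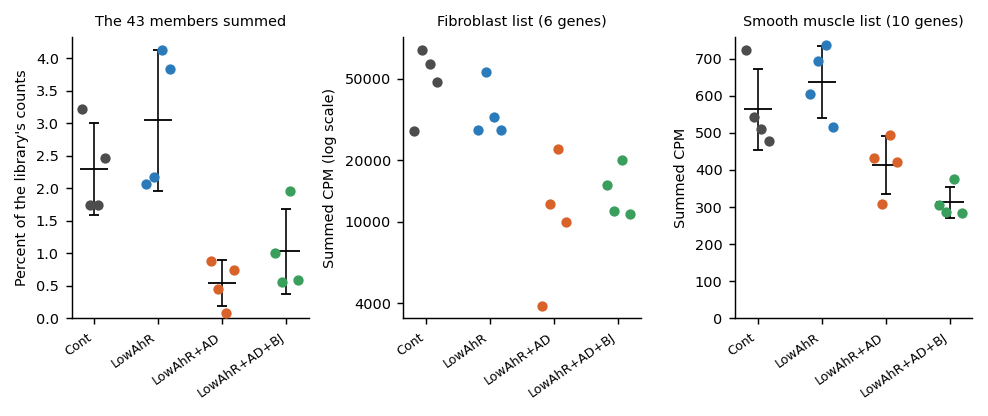
Summed level in each library (points, in order of replicate) of the 43 members as percent of counts, and of the fibroblast and smooth muscle lists in CPM, the fibroblast panel on a log axis; in the outer panels the line and bars are the mean and SD of 4 libraries. The members and both other lists have lower means in the DNCB groups, by 5.62-fold in share for the members in LowAhR+AD against LowAhR, while the smooth muscle sums of Cont and LowAhR+AD overlap.

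Over the 16 libraries, 28 of the 42 tested members had a Pearson correlation above 0.9 between their log2 CPM and the mean log2 CPM of the other tested members, with a median of 0.937. The lowest were Tnnt1 (-0.067), Tnni1 (close to 0), Tnnc1 (0.405), Actn3 (0.643), Mybpc2 (0.688) and Cav3 (0.694). Outside all lists, the genes most like that mean were Rtn2 (0.983), Adssl1 (0.971), Ppp1r3a (0.961), Pde4dip (0.956), Usp13 (0.955), Klhl31 (0.953), Ndrg2 (0.949), Dhrs7c (0.948) and Rragd (0.946). Depth and group are shared by these points, and the values are a description. Of these, Ppp1r3a encodes the glycogen-targeting subunit of a muscle phosphatase.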

How the data were processed

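RNA of dorsal skin was sequenced in 16 libraries of 4 groups with the QuantSeq 3′ mRNA kit, single-end with 75-base reads. Values deposited by the authors are raw counts of reads per gene symbol, without normalization. The submitters' processing notes name Bowtie2, bedtools and mm10 with no role or version. The gene annotation and the treatment of reads that match several places are not given in the sources used here, and neither is whether each library came from a single mouse, so p-values measure the spread between libraries.

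The 43 members and all gene lists were chosen with earlier results of these data known. From the deposited counts, rows under a minimum count of 10 (total 15) by filterByExpr were left out, which kept 14854 of 23282 rows. TMM factors ran from 0.892 to 1.16. The main test was edgeR 4.0.16 (quasi-likelihood, 1 model of the 4 groups, R 4.3.3) with Benjamini-Hochberg adjustment over all tested rows and a threshold of 0.05. Ratios were tested exactly in Python 3.11.15 with scipy 1.17.1. Alternatives were limma 3.58.1 (voom), DESeq2 1.42.0, RLE factors, no filter, library sizes without muscle genes or set to the members' sum, a model of only the compared libraries, a replicate block, another prior count in the ratios and each library left out. The scripts were tested on simulated data.

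Values are given by library for the highest 2 members of each role by mean CPM and for both genes of each fast and slow pair, and from other lists for the highest 2 genes and up to 4 called ones. Outside all lists, the 10 genes most like the members' mean were looked up, and 1 of them is not reported here. The lists were other structure, calcium coupling, energy, progenitor, neuromuscular junction and atrophy genes of muscle, and markers of smooth muscle, heart, fibroblasts, adipocytes, hair follicle, basal and suprabasal keratinocytes and leukocytes. Totals of 7080508 to 8773876 counts in Cont and LowAhR and of 10614393 to 13467477 in the DNCB groups cannot be told apart from DNCB itself. A count of 0 allows up to 3 counts, and such limits cover counting error only.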

Additional observations from a re-analysis of the deposited data

Results flagged for a closer look

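Of the 104 sets of 4 libraries looked at, 11 held a library that stood apart from the other 3 by Dixon's criterion of 0.829, and chance flags about 1 in 20 such sets.

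Among fast genes and ratios, LowAhR+AD replicate 1 stood apart with a Myh4 share of 41.9% of the fast myosin counts and a log2 ratio of Myh4 to Myh1 of 0.25, against 84.0% and 3.15 or more in the other libraries of the group. LowAhR+AD+BJ replicate 4 had a log2 ratio of Mybpc2 over Mybpc1 of -4.45, with 1.41 as its nearest neighbour. LowAhR+AD+BJ replicate 2 had the lowest Myh2 level of its group, 40.6 CPM.

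The remaining flags were slow genes, most of them from few counts. Cont replicate 3 was high for Tnnt1 (9.13 CPM), Tnni1 (1.85 CPM) and Myh7 (3.08 CPM), and LowAhR replicate 4 was high for Myh7 (2.15 CPM). Tnnc1 was 0.233 CPM in LowAhR+AD replicate 3, with 0 in the other 3 libraries, and 0.916 CPM in LowAhR+AD+BJ replicate 2. Myh7 was 0.0821 CPM in LowAhR+AD replicate 2, with 0 in the other 3 libraries. No explanation of these values was tested.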

How the results depend on the processing

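Depth limits Tnnc1 and Myh7, which only 6 and 4 of 16 libraries read with 3 or more counts. For LowAhR+AD against LowAhR, the main fit called 37 members, beside 923 rows called lower. The number ranged from 27 to 36 with 1 library left out, beside 616 to 968 rows. It was 33 with the replicate block, beside 871 rows, and 23 in the model of the 8 libraries compared, beside 444 of 13946. For LowAhR+AD against Cont, 25 to 29 were called with 1 library left out, beside 1060 to 1590 rows called lower. In the 8-library model LowAhR against Cont had 2 called members, beside 250 of 13574 rows called. In DESeq2 LowAhR+AD+BJ against LowAhR+AD had 1, beside 19 of 18803. The 10 calls of LowAhR+AD+BJ against LowAhR, beside 464 rows called lower, became 20 in the 8-library model, beside 629 of 13931 rows. They became 20 in DESeq2, beside 879 of 18803, and 17 in limma voom, beside 528. With the replicate block they were 5, beside 458. With 1 library left out they were 2 to 26, beside 195 to 753 rows. Both were highest without LowAhR+AD+BJ replicate 3. No sign that replicate numbers pair the libraries was seen, though this check cannot exclude it. Deviations of same-numbered libraries correlated at -0.055 to 0.167 over 24 pairs, and those of differently numbered ones at -0.146 to 0.14 over 72. Of 16 libraries, 5 were closest to their own number. The block ended the calls of Myh4, Mybpc2, Actn3 and Tpm2 in LowAhR+AD against LowAhR.

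With library size set to the members' summed counts, which by construction removes a change that the members share, 2 members were called in LowAhR+AD against LowAhR, 5 in LowAhR+AD against Cont and 0 in LowAhR+AD+BJ against LowAhR, with medians of -0.01, -0.03 and 0.06, and the median of LowAhR+AD+BJ against LowAhR+AD was -0.03. On that scale 21 of the 42 negative log2 fold changes turned positive in LowAhR+AD against LowAhR: Tnnt1 3.71, Tnni1 2.98, Tnnc1 0.50, Acta1 0.33, Actn2 1.22, Actn3 0.48, Atp2a1 0.59, Cav3 1.14, Des 0.08, Ldb3 0.52, Mb 0.34, Mybpc2 0.29, Myh2 0.84, Myom1 0.04, Myot 0.17, Myoz1 0.09, Pygm 0.50, Smyd1 0.42, Tcap 0.38, Tnnt3 0.10 and Tpm2 2.06. In LowAhR+AD against Cont 17 of 40 did, among them Acta1 0.41, Actn3 2.45, Atp2a1 0.82, Mybpc2 1.36, Myh4 1.86 and Pvalb 0.57. Actn3 against Cont ran from -0.63 to 0.29 with 1 library left out and was positive without Cont replicate 1 and LowAhR+AD replicates 1 (0.26) and 3 (0.20). For all these the cause was not tested.

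With 1 library left out, Mybpc2 over Mybpc1 in LowAhR+AD against Cont differed by 2.46 to 2.82, where 4 against 3 libraries cannot reach an exact p under 0.0571. Tnni2 over Tnni1 in LowAhR+AD+BJ against LowAhR+AD ran from -0.41, without LowAhR+AD replicate 3, to 1.48. Mybpc2 over Mybpc1 in LowAhR+AD+BJ against LowAhR ran from -1.39 to 0.94, the latter without LowAhR+AD+BJ replicate 4. Of the alternative values, 1015 kept their direction and call or stayed close in size, 29 reversed, 22 moved, 100 lost a call in the same direction and 9 gained one.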
